A study of Mus musculus with 18 samples.

Results

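The 10 chemokine receptors described here are Ccr3 and Cxcr2, known from granulocytes, Ccr6, Ccr7, Ccr9 and Cxcr5, known from lymphoid cells, and the atypical or decoy receptors Ccrl2, Ackr1, Ackr3 and Ackr4. They are given by name, and they are 10 of the 17178 genes with a probe. All 10 were bright enough to be tested, among 11884 genes tested in all. Bone marrow came from C3H mice, all female, and its RNA was read on Agilent arrays with a single dye, in 6 groups of 3 arrays with 1 mouse each. The 8-week mice had been given 2 Gy of gamma radiation and were sampled at 6 h or at 24 h, or were unirradiated (0 Gy). Mice of 1 week fell into the same 3 groups. No cell type was sorted, so fewer cells of a type and less RNA per cell cannot be told apart in any of these values.

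Chemokine receptors are G protein-coupled receptors that steer blood cells along gradients of secreted chemokines, and in the marrow they govern which cells are held and which are released. Most of the receptors described here signal through inhibitory G proteins. The atypical ones bind chemokines without that signal and instead present, transport or remove them.

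Levels are log2 signals relative to the 75th percentile of the array, so that 0 lies at that percentile and 1 unit is a doubling of signal. Levels of different probes were not compared with each other. Of the 10, 8 were well above background on every array, Ackr3 on 15 of the 18 arrays and Ackr4 on 12. Between 51.1% and 62.1% of the probes of an array were well above background, and the small number of arrays limits the precision. The early granulocyte and erythroid marker lists had mean levels of 3.34 or more and 4.03 or more on all 18 arrays. All 8 genes of a p53 target list rose after irradiation at both ages and times, apart from Trp53inp1 at 24 h in 8-week mice, named after its value was seen (0.16, not called). Cdkn1a, the p21 cell cycle inhibitor, was 2.97 and 2.81 log2 units above control at 6 h and 24 h in 8-week mice, and 2.33 and 2.29 units above control in 1-week mice. Replicate 2 of the 1-week controls stood apart: its skeletal muscle list averaged 6.16, against -0.99 and -0.01 on the other 1-week control arrays, and its cartilage list 3.08, against -2.78 and -2.05. Its r with the other 2 arrays of its group was 0.978 and 0.98, against 0.992 to 0.997 for all other replicate pairs. Results that rest on the 1-week controls are given without it where the call changed. Within slides, 63 of 63 values of called receptor results had the sign of the full fit. Where the arrays of 2 groups do not overlap, that sign is fixed in advance. Most called results were of that kind, so this is little check of the slides.

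More of the receptors rose than fell after irradiation, except at 24 h in 8-week mice. A change was called at a limma adjusted p below 0.05 (Benjamini-Hochberg over all genes tested). At 6 h in 8-week mice 5 receptors rose (Ccr3, Cxcr2, Ccrl2, Ackr3 and Ackr4) and 1 fell (Ccr7), while 46% of all tested genes were called, 23.9% higher and 22.1% lower. At 24 h in 8-week mice 4 rose (Ccr3, Cxcr2, Ackr3 and Ackr4) and 4 fell (Ccr6, Ccr7, Cxcr5 and Ackr1), against 57.8% of all genes called, 38.3% higher and 19.5% lower. At 6 h in 1-week mice 6 rose (Ccr3, Cxcr2, Ccr6, Ccr9, Ccrl2 and Ackr1) and 1 fell (Ccr7), against 51.8% called, 25.5% higher and 26.3% lower. At 24 h in 1-week mice 6 rose (Ccr3, Cxcr2, Ccr6, Ccrl2, Ackr3 and Ackr4) and 1 fell (Ccr7), against 36% called, 18.4% higher and 17.6% lower. Counts over 10 members are small beside these backgrounds, and nothing particular to the receptors is read from them. The shares of all genes in the same comparison also stand behind the counts of marker and gene lists given below. The median difference over the 10 receptors was 0.37 and -0.03 log2 units at 6 h and 24 h in 8-week mice and 0.74 and 0.63 units in 1-week mice, against 0.02, 0.12, 0 and -0.01 over all genes tested. The 6 h and 24 h comparisons of an age share their 3 control arrays, so they are not independent of each other.

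**Figure D1:**
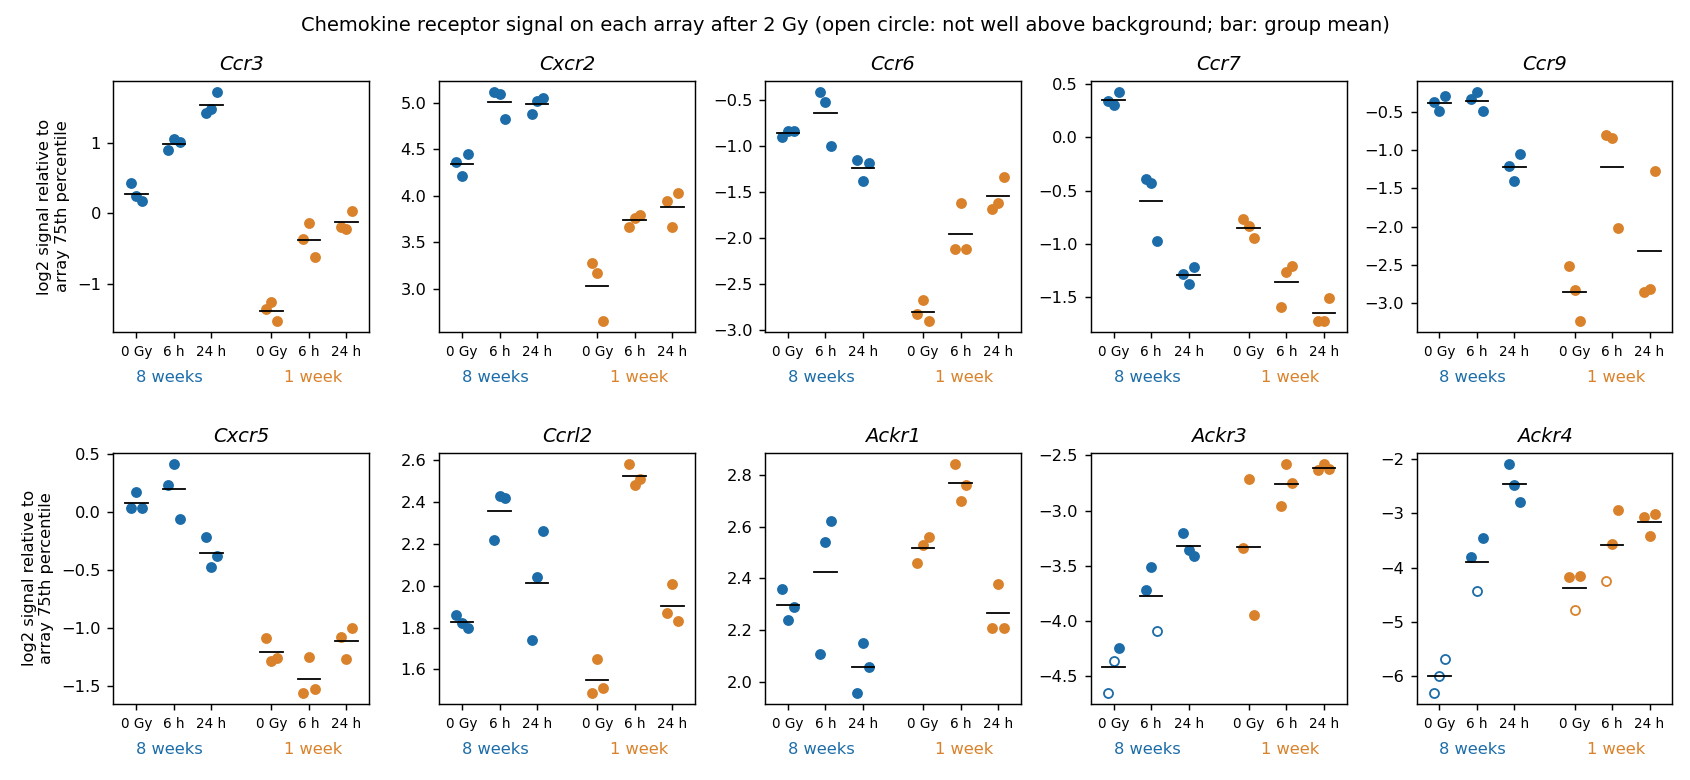
Log2 signal of each receptor relative to the array's 75th percentile (vertical axes, a separate scale per receptor) on each of the 18 arrays, with 8-week mice in blue on the left and 1-week mice in orange on the right of each panel. Bars are group means of 3 arrays and open circles mark probes not well above background. Ccr3 and Cxcr2 are higher after irradiation at both ages, Ccr7 is lower, and the Ackr4 probe of all 3 unirradiated 8-week arrays is not well above background.

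Both granulocyte receptors rose at both ages and both times. Ccr3, the eotaxin receptor of eosinophils, had levels of 0.43, 0.24 and 0.17 on the 8-week control arrays, 0.89, 1.05 and 1.01 at 6 h, and 1.42, 1.47 and 1.71 at 24 h. Its levels at 1 week were -1.35, -1.26 and -1.52 on the control arrays, -0.36, -0.14 and -0.62 at 6 h, and -0.20, -0.22 and 0.03 at 24 h. At each age every irradiated array lay above every control array. The rise in 8-week mice was 0.70 ± 0.12 log2 units at 6 h (SE, adjusted p = 0.000173) and 1.25 ± 0.12 at 24 h (adjusted p = 2.03e-07), or 1.63-fold and 2.38-fold. The 1-week rise was 1 ± 0.12 at 6 h (adjusted p = 3.33e-06) and 1.25 ± 0.12 at 24 h (adjusted p = 5.57e-07). Between 6 h and 24 h, Ccr3 went on rising in 8-week mice (0.55 ± 0.12, adjusted p = 0.000956). In 1-week mice that step was 0.24 ± 0.12 with overlapping arrays (adjusted p = 0.115, and 0.0287 without replicate 2 of the 6 h group).

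The order of the 6 group levels of Ccr3 was 8-week 24 h, 6 h and control, then 1-week 24 h, 6 h and control. Only the 1-week 24 h and 6 h groups overlapped with their neighbour. A second, dimmer probe of Ccr3 was well above background on 3 arrays and gave no usable second reading.

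Cxcr2, the neutrophil receptor for Cxcl1 and related chemokines, which acts in the release of neutrophils from the marrow, had levels of 4.36, 4.21 and 4.45 on the 8-week control arrays, 5.11, 5.09 and 4.83 at 6 h, and 4.88, 5.02 and 5.05 at 24 h. At 1 week the levels were 3.28, 3.17 and 2.66 on the control arrays, 3.67, 3.76 and 3.79 at 6 h, and 3.94, 3.67 and 4.03 at 24 h. The irradiated and control arrays of an age did not overlap, while the 6 h and 24 h arrays did. Cxcr2 rose by 0.67 ± 0.13 log2 units at 6 h (SE, adjusted p = 0.000709) and 0.65 ± 0.13 at 24 h (adjusted p = 0.000524) in 8-week mice. At 1 week it rose by 0.70 ± 0.13 (adjusted p = 0.000296) and 0.84 ± 0.13 (adjusted p = 0.000103). The step between 6 h and 24 h was -0.02 at 8 weeks (95% interval -0.30 to 0.26) and 0.14 at 1 week (-0.14 to 0.42). Its second probe gave rises of 0.85 to 1.06 over the 4 comparisons.

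Eosinophil and late neutrophil markers rose beside these receptors at both ages. At 1 week the basophil and mast cell markers were mixed, and early granulocyte markers fell or were not called. Of 8 tested eosinophil markers (9 listed, Ear2 without a probe), 7 rose at 6 h and 7 at 24 h in 8-week mice, and all 8 rose at both times in 1-week mice. Their mean level per array was 2.62 to 2.75 in 8-week controls, 3.04 to 3.40 at 6 h and 3.25 to 3.38 at 24 h, and 2.42 to 2.63 in 1-week controls, 3.29 to 3.34 at 6 h and 3.33 to 3.49 at 24 h. All 12 late neutrophil markers, among them the lactoferrin gene Ltf, rose in each of these comparisons except for S100a8 at 6 h in 8-week mice (0.22, not called, named after its value was seen). Their mean level was 6.02 to 6.15 in 8-week controls, 6.48 to 6.67 at 6 h and 6.59 to 6.72 at 24 h, and 4.86 to 5.11 in 1-week controls, 5.61 to 5.83 at 6 h and 5.73 to 5.86 at 24 h. Of 8 basophil and mast cell markers 6 rose at 6 h and 2 at 24 h in 8-week mice, and 1 rose and 3 fell at 6 h and 1 rose and 1 fell at 24 h in 1-week mice. Of 6 early granulocyte markers 1 rose at 6 h and 6 at 24 h in 8-week mice. In 1-week mice 5 of them fell at 6 h and 3 at 24 h. The part of these cells in the rise of Ccr3 and Cxcr2 was not tested.

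The upstream sequence of these receptors is shown because they moved together at both ages. RefSeq (build GRCm38.p6) gave windows of 250 bases before to 50 after a transcription start for 8 of the 10 receptors, 11 windows in all. Ccr7 and Cxcr5 are named only. The 250 bases before the start are printed 5′ to 3′ on the gene's strand, with motif matches on either strand in capitals. The Ccr3 start used lies inside its annotated gene (chr9:124017825-124031692), so its window is not upstream of the whole gene.
Ccr3 (chr9:124021721-124021970, plus strand): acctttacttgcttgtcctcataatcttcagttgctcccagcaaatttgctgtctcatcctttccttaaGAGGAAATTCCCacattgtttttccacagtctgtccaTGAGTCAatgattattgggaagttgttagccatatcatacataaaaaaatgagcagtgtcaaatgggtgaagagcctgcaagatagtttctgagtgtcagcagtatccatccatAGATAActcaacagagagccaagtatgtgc
Cxcr2 (chr1:74153744-74153993, plus strand): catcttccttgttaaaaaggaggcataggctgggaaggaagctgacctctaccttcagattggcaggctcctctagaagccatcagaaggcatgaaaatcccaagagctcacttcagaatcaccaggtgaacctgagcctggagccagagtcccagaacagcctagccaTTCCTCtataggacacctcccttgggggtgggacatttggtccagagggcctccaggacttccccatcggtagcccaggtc
The core letters GAGGAA of the PU.1 site, a factor of myeloid cells, were in both windows and in 28.3% of all 32851 windows of the same length. In Ccr3 this match, which begins 181 bases before the start, overlaps a match to the NF-kB consensus (4.51% of all windows). The Ccr3 window also holds TGANTCA, the AP-1 letters (7.81%), and AGATAA, the GATA letters (11.2%), which begin 144 and 30 bases before the start. These matches are letters in a window and show no binding.

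Among the lymphoid receptors, Ccr7 fell at both ages, and at 24 h by more at 8 weeks. The calls of Ccr6, Ccr9 and Cxcr5 against control were not the same at 8 weeks and at 1 week. For Ccr9 the called difference between the ages in response depended on single arrays. Ccr7, the receptor for Ccl19 and Ccl21 that leads lymphocytes and dendritic cells to lymph nodes, had levels of 0.34, 0.30 and 0.42 on the 8-week control arrays, -0.39, -0.43 and -0.97 at 6 h, and -1.28, -1.38 and -1.22 at 24 h. On 1-week arrays they were -0.77, -0.83 and -0.94 on the control arrays, -1.59, -1.26 and -1.21 at 6 h, and -1.72, -1.72 and -1.51 at 24 h. Every irradiated array lay below every control array of its age. In 8-week mice Ccr7 fell by 0.95 ± 0.13 log2 units at 6 h (SE, adjusted p = 3.56e-05) and by 1.64 ± 0.13 at 24 h (adjusted p = 3.44e-08), which is 3.12-fold lower at 24 h. At 1 week it fell by 0.51 ± 0.13 at 6 h (adjusted p = 0.00417) and by 0.80 ± 0.13 at 24 h (adjusted p = 0.000172). The further fall between 6 h and 24 h was called in 8-week mice (-0.69 ± 0.13, adjusted p = 0.000362). In 1-week mice the 24 h minus 6 h difference was -0.30 ± 0.13 (adjusted p = 0.0897), and it was called without replicate 1 of the 1-week 6 h group (-0.41, adjusted p = 0.0323) or replicate 3 of the 8-week 6 h group (-0.30, adjusted p = 0.0236).

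Ccr7 was highest in the 8-week controls, and no other group reached their levels. The next groups in order, 8-week 6 h and 1-week controls, overlapped, as did 8-week 24 h, 1-week 6 h and 1-week 24 h, each with the next.

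Ccr6, the receptor for Ccl20 on B cells and some T cells, had levels of -0.90, -0.84 and -0.84 on the 8-week control arrays, -0.42, -0.52 and -1 at 6 h, and -1.15, -1.38 and -1.19 at 24 h. The 1-week levels were -2.83, -2.68 and -2.90 on the control arrays, -2.12, -1.62 and -2.12 at 6 h, and -1.69, -1.62 and -1.34 at 24 h. The 1-week irradiated arrays all lay above their controls, and the 8-week 24 h arrays all lay below theirs. In 1-week mice Ccr6 rose by 0.85 ± 0.15 log2 units at 6 h (SE, adjusted p = 0.000218) and by 1.25 ± 0.15 at 24 h (adjusted p = 9.41e-06), or 2.39-fold. In 8-week mice the difference was 0.21 ± 0.15 at 6 h (adjusted p = 0.274, and 0.0415 without replicate 3 of the 6 h group, where the value was 0.39). In 8-week mice at 24 h it fell by 0.38 ± 0.15 (adjusted p = 0.0424). That call was lost when any 1 of the 3 control or 3 irradiated arrays was left out, with values of -0.43 to -0.31 and adjusted p of 0.0515 to 0.144. It was also lost with quantile normalization, with no filter on dim probes and with the slide as a fixed block (adjusted p = 0.0612 to 0.0654). From 6 h to 24 h Ccr6 fell in 8-week mice (-0.59 ± 0.15, adjusted p = 0.00412). The 24 h minus 6 h difference in 1-week mice was 0.41 ± 0.15 (adjusted p = 0.0486), a call lost without any of 14 arrays, with adjusted p of 0.0508 to 0.19.

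Ccr9, the receptor for Ccl25 that guides lymphoid cells to the thymus and small intestine and is also carried by plasmacytoid dendritic cells, had levels of -0.38, -0.49 and -0.30 on the 8-week control arrays, -0.33, -0.25 and -0.49 at 6 h, and -1.21, -1.41 and -1.05 at 24 h. The 1-week mice had -2.52, -2.83 and -3.23 on the control arrays, -0.80, -0.84 and -2.02 at 6 h, and -2.86, -2.82 and -1.27 at 24 h. The irradiated 1-week groups spread widely, with 1 of 3 arrays far from the others in each. Ccr9 rose in 1-week mice at 6 h by 1.64 ± 0.35 log2 units (SE, adjusted p = 0.001), or 3.11-fold, and no 6 h array overlapped the controls. At 24 h in 1-week mice the difference was 0.54 ± 0.35 and the arrays overlapped (adjusted p = 0.255). Without replicate 3 of that group it was 0.02 (adjusted p = 0.974). In 8-week mice it was 0.03 ± 0.35 at 6 h (95% interval -0.72 to 0.78) and -0.84 ± 0.35 at 24 h (adjusted p = 0.0525). All 3 of the 8-week 24 h arrays lay below the controls, and that difference was called under 9 of 30 alternatives, with adjusted p of 0.000132 to 0.0485. When only the 2 groups compared were fitted, the adjusted p was 0.000132. Leaving out replicate 3 of the 1-week 24 h group gave 0.00934, with the value at -0.84 in both. The 24 h minus 6 h difference was -0.87 ± 0.35 in 8-week mice, with no overlap (adjusted p = 0.0518). It was called there under 10 of 30 alternatives, with adjusted p of 0.000399 to 0.0469. In 1-week mice the 24 h minus 6 h difference was -1.1 ± 0.35, with overlapping arrays (adjusted p = 0.0225). The call in 1-week mice was lost without replicate 1 or 2 of either irradiated group (-0.91 to -0.83, adjusted p = 0.0922 to 0.116). It was also lost with the slide as a fixed block and when only the groups compared were fitted (adjusted p = 0.0592 to 0.0971).

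Cxcr5, the receptor for Cxcl13 that places B cells in follicles, had levels of 0.03, 0.17 and 0.03 on the 8-week control arrays, 0.23, 0.41 and -0.06 at 6 h, and -0.22, -0.48 and -0.38 at 24 h. Its levels at 1 week were -1.09, -1.29 and -1.26 on the control arrays, -1.56, -1.25 and -1.53 at 6 h, and -1.08, -1.27 and -1 at 24 h. Only the 8-week 24 h arrays lay clear of their controls. Cxcr5 fell by 0.44 ± 0.12 log2 units at 24 h in 8-week mice (SE, adjusted p = 0.00438), or 1.35-fold. At 6 h in 8-week mice it differed from control by 0.12 ± 0.12 (95% interval -0.13 to 0.37). In 1-week mice the difference was -0.23 ± 0.12 at 6 h (-0.48 to 0.02) and 0.10 ± 0.12 at 24 h (-0.15 to 0.35). The value at 6 h in 1-week mice was called without replicate 2 of that group (-0.33, adjusted p = 0.0401). Between 6 h and 24 h it fell in 8-week mice (-0.56 ± 0.12, adjusted p = 0.000875). In 1-week mice that difference was 0.33 ± 0.12 (adjusted p = 0.038). This 1-week call was lost without replicate 1 or 3 of either irradiated 1-week group (0.27 to 0.31, adjusted p = 0.1 to 0.133).

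The B-cell and other marker lists moved beside these receptors and not always with them. Of 12 mature B-cell markers, the first of them Ms4a1, which encodes CD20, 2 rose and 4 fell at 6 h and 1 rose and 7 fell at 24 h in 8-week mice. In 1-week mice 6 rose and 3 fell at 6 h and 5 rose and 3 fell at 24 h. Their mean level was 1.73 to 1.88 in 8-week controls, 1.47 to 1.82 at 6 h and 0.98 to 1.21 at 24 h, and 0.14 to 0.34 in 1-week controls, 0.44 to 0.78 at 6 h and 0.15 to 0.64 at 24 h. Ms4a1 itself was 0.97 log2 units lower at 24 h in 8-week mice and 0.68 higher at 24 h in 1-week mice, both called. B-cell precursor markers fell at both ages, 8 of 9 at both times in 8-week mice, and 8 of 9 at 6 h and 9 of 9 at 24 h in 1-week mice. Of 8 T-cell markers 2 or 3 rose and 0 to 2 fell in each comparison, and Cd4, Themis and Trat1 were too dim to test. Of 10 dendritic cell markers 2 rose and 1 fell at 6 h and 3 rose and 3 fell at 24 h in 8-week mice, and 5 rose and 1 fell at 6 h and 1 rose and 1 fell at 24 h in 1-week mice. The part of these cells in the receptors' values was not tested.

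Among the atypical receptors Ccrl2 rose at 6 h, Ackr1 shifted little, and Ackr3 and Ackr4 rose by 24 h at both ages. Ccrl2, which does not signal but binds the chemoattractant chemerin and presents it to neighbouring cells, had levels of 1.86, 1.82 and 1.80 on the 8-week control arrays, 2.22, 2.43 and 2.42 at 6 h, and 1.74, 2.04 and 2.26 at 24 h. At 1 week the levels were 1.49, 1.65 and 1.51 on the control arrays, 2.58, 2.48 and 2.51 at 6 h, and 1.87, 2.01 and 1.83 at 24 h. The 6 h arrays were the highest at each age, apart from 1 overlapping array at 24 h in 8-week mice. Ccrl2 rose at 6 h by 0.53 ± 0.10 log2 units in 8-week mice (SE, adjusted p = 0.00046) and by 0.97 ± 0.10 in 1-week mice (adjusted p = 7.56e-07). At 24 h it was 0.19 ± 0.10 above control in 8-week mice (adjusted p = 0.116). In 1-week mice it was 0.36 ± 0.10 above control at 24 h (adjusted p = 0.00898). The 8-week value at 24 h was 0.32 without replicate 1 of that group (adjusted p = 0.00458), but 0.02 by the dimmer probe (adjusted p = 0.894), 0.10 as the mean over both and 0.02 with normexp. The dimmer probe gave 0.31 for the 1-week rise at 24 h (adjusted p = 0.0645). With normexp the 8-week rise at 6 h was 0.35 (adjusted p = 0.0447). From 6 h to 24 h Ccrl2 fell by 0.61 ± 0.10 in 1-week mice (adjusted p = 0.000153). It fell by 0.34 ± 0.10 in 8-week mice (adjusted p = 0.00846), a call lost without replicate 1 of the 24 h group (-0.21, adjusted p = 0.0568).

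Ackr1, the Duffy antigen receptor of erythroid cells and venules that binds many inflammatory chemokines, had levels of 2.36, 2.24 and 2.29 on the 8-week control arrays, 2.11, 2.54 and 2.62 at 6 h, and 1.96, 2.15 and 2.06 at 24 h. On 1-week arrays they were 2.46, 2.53 and 2.56 on the control arrays, 2.84, 2.70 and 2.76 at 6 h, and 2.21, 2.38 and 2.21 at 24 h. The shifts from control were small at both ages. In 8-week mice it was 0.13 ± 0.10 log2 units above control at 6 h with overlapping arrays (adjusted p = 0.316), and 0.28 above (adjusted p = 0.00519) without replicate 1 of the 6 h group. At 24 h in 8-week mice it fell by 0.24 ± 0.10 (SE, adjusted p = 0.0477), and in 1-week mice it rose by 0.25 ± 0.10 at 6 h (adjusted p = 0.0443). The 6 h value in 1-week mice was 0.41 by the dimmer probe and 0.14 with normexp. These 2 calls were lost without any of 13 and 12 arrays, with adjusted p of 0.0517 to 0.157 and 0.0501 to 0.136. The 24 h call was also lost with the slide as a fixed block. The arrays behind the lost 6 h call included replicate 2 of the 1-week controls (0.26, adjusted p = 0.0735). At 24 h in 1-week mice the difference was -0.25 ± 0.10 (adjusted p = 0.0637), and it was called without replicate 2 of that group, or replicate 1 or 3 of the 8-week 6 h group (-0.30 to -0.25, adjusted p = 0.00648 to 0.0487). The fall between 6 h and 24 h held firmer, at 0.37 ± 0.10 in 8-week mice (adjusted p = 0.00571) and 0.50 ± 0.10 in 1-week mice (adjusted p = 0.00099).

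Erythroid markers ran beside Ackr1. Of 14 such markers, 8 rose and 1 fell at 6 h and 1 rose and 9 fell at 24 h in 8-week mice, while 11 rose at 6 h and 6 rose at 24 h in 1-week mice with none falling. Their mean level was 4.28 to 4.36 in 8-week controls, 4.31 to 4.75 at 6 h and 4.03 to 4.13 at 24 h, and 4.78 to 4.82 in 1-week controls, 5.31 to 5.42 at 6 h and 5.01 to 5.12 at 24 h. In 1-week mice at 24 h the erythroid mean lay above control while Ackr1 lay below it. The part of erythroid cells in the values of Ackr1 was not tested. A stretch of 30 bases just inside the first RefSeq exon of Ackr1 is shown because it holds the GATA letters, the motif of the erythroid factor Gata1, in capitals (AGATAA on the opposite strand), which begin 26 bases after the start.
Ackr1 (chr1:173333461-173333490, minus strand): agccctgggcacTTATCTtggagccacagc
The same letters were also in 2 overlapping Ccrl2 windows, at the same genomic site, in 1 Ccr6 window and in the Ccr3 window. They were in 11.2% of all windows.

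Ackr3, which removes Cxcl12 and Cxcl11 and is carried mainly by endothelial and stromal cells, was dim. It had levels of -4.65, -4.36 and -4.25 on the 8-week control arrays, -3.72, -3.51 and -4.09 at 6 h, and -3.20, -3.36 and -3.41 at 24 h. The 1-week levels were -3.34, -2.71 and -3.95 on the control arrays, -2.96, -2.58 and -2.75 at 6 h, and -2.63, -2.58 and -2.62 at 24 h. The 3 readings not well above background were the lowest 2 of the 8-week controls and the lowest at 6 h in 8-week mice. The Ackr3 signal rose in 8-week mice by 0.64 ± 0.24 log2 units at 6 h (SE, adjusted p = 0.0394) and by 1.1 ± 0.24 at 24 h (adjusted p = 0.00107), the 24 h rise being 2.14-fold. The 6 h call was lost without replicate 1 or 2 of either group (0.51 to 0.68, adjusted p = 0.0655 to 0.149). It was also lost with quantile normalization, with no filter on dim probes and with the slide as a fixed block (adjusted p = 0.0563 to 0.0939). In 1-week mice the difference was 0.57 ± 0.24 at 6 h with overlapping arrays (adjusted p = 0.0603). Without replicate 2 of the 1-week controls it was 0.88 (adjusted p = 0.00319). It rose by 0.73 ± 0.24 at 24 h (adjusted p = 0.0279), or 1.04 (adjusted p = 0.00155) without that array. Without any 1 of the other 2 controls or of the 3 irradiated arrays the 24 h call was lost (0.42 to 0.74, adjusted p = 0.0576 to 0.162), with 0.42 given by leaving out replicate 3 of the controls. With normexp the called rises at 24 h were 0.64 in 8-week mice and 0.41 in 1-week mice, both still called. The 24 h minus 6 h differences, 0.45 in 8-week mice and 0.16 in 1-week mice, were not called (adjusted p = 0.135 and 0.652).

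Ackr4, which removes Ccl19, Ccl21 and Ccl25, stood furthest above control of the 10 receptors at 24 h in 8-week mice. It had levels of -6.30, -6.00 and -5.68 on the 8-week control arrays, none of them well above background, -3.80, -4.43 and -3.45 at 6 h, and -2.10, -2.48 and -2.80 at 24 h. The 1-week mice had -4.18, -4.79 and -4.15 on the control arrays, -4.25, -3.57 and -2.95 at 6 h, and -3.07, -3.42 and -3.01 at 24 h. The second 8-week array at 6 h, the second 1-week control and the first 1-week array at 6 h were also not well above background. Since the 8-week controls give only a bound, Ackr4 was at least 4.42-fold higher at 24 h in 8-week mice on the scale of the processed signals, relative to the dimmest signal well above background on each control array. At 6 h 2 of 3 arrays were well above background, and no bound is given. Ackr4 passed the brightness filter only through the 24 h groups of both ages, where its levels were highest. Its adjusted p at 24 h is therefore no independent support for a rise. The fitted differences, which use the controls' measured values, were 3.54 ± 0.33 log2 units at 24 h (SE, adjusted p = 1.84e-07) and 2.10 ± 0.33 at 6 h (adjusted p = 0.000101). With normexp background correction and an offset of 50, which compresses low signals, they were 1.41 at 24 h and 0.73 at 6 h, both called. At 1 week the rise was 1.20 ± 0.33 at 24 h (adjusted p = 0.00861), or 2.30-fold, and 0.61 with normexp. It was 0.78 ± 0.33 above control at 6 h with overlapping arrays (adjusted p = 0.0554), and it was called without replicate 1 of that group (1.11, adjusted p = 0.012) or without replicate 2 or 3 of the 8-week 6 h group (0.78, adjusted p = 0.045 and 0.0499). From 6 h to 24 h it rose in 8-week mice (1.44 ± 0.33, adjusted p = 0.00164, and 0.68 with normexp). In 1-week mice that difference was 0.42 ± 0.33 (95% interval -0.27 to 1.11).

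Stromal and endothelial markers rose beside Ackr3 and Ackr4 in 8-week mice. The 24 h response was higher at 8 weeks than at 1 week for 10 of the stromal and 7 of the endothelial markers, and lower for none. Of 14 stromal fibroblast and osteoblast markers, the first of them the collagen gene Col1a1, 12 rose at 6 h and 13 at 24 h in 8-week mice, and 2 rose and 3 fell at 6 h and 3 rose at 24 h in 1-week mice. Their mean level was -1.17 to -0.76 in 8-week controls, -0.28 to 0.17 at 6 h and 0.51 to 0.85 at 24 h, and 1.12 to 1.33 in 1-week controls, 1.05 to 1.31 at 6 h and 1.46 to 1.68 at 24 h. Of 11 endothelial markers 6 rose at 6 h and 9 at 24 h in 8-week mice, and 3 rose at each time in 1-week mice. Their mean level was -1.34 to -1.14 in 8-week controls, -0.95 to -0.54 at 6 h and -0.55 to -0.33 at 24 h, and -0.43 to -0.05 in 1-week controls, -0.11 to 0.20 at 6 h and -0.01 to 0.17 at 24 h. The part of these cells in the rise of Ackr3 and Ackr4 was not tested.

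The windows of these 2 receptors are shown because both rose at 24 h at both ages.
Ackr3 (chr1:90203730-90203979, plus strand): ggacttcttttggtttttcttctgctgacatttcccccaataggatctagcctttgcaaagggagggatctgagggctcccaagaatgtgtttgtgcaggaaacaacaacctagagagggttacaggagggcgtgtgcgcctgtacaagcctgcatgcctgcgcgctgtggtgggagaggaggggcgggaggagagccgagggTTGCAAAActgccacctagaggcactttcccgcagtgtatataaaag
Ackr4 (chr9:104126644-104126893, minus strand): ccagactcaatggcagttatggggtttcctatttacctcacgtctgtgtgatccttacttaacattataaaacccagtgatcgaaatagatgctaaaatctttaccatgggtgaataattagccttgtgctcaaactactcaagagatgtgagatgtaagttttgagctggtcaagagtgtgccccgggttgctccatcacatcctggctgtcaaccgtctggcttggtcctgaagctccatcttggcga
Capitals in Ackr3 mark the C/EBP letters TTGCNNAA, found in 10.8% of all windows. A p53 half-site match (8.36% of all windows) spans the start of Ackr3, from 2 bases before it. None of the 6 motifs searched was in the Ackr4 window.

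**Figure D2:**
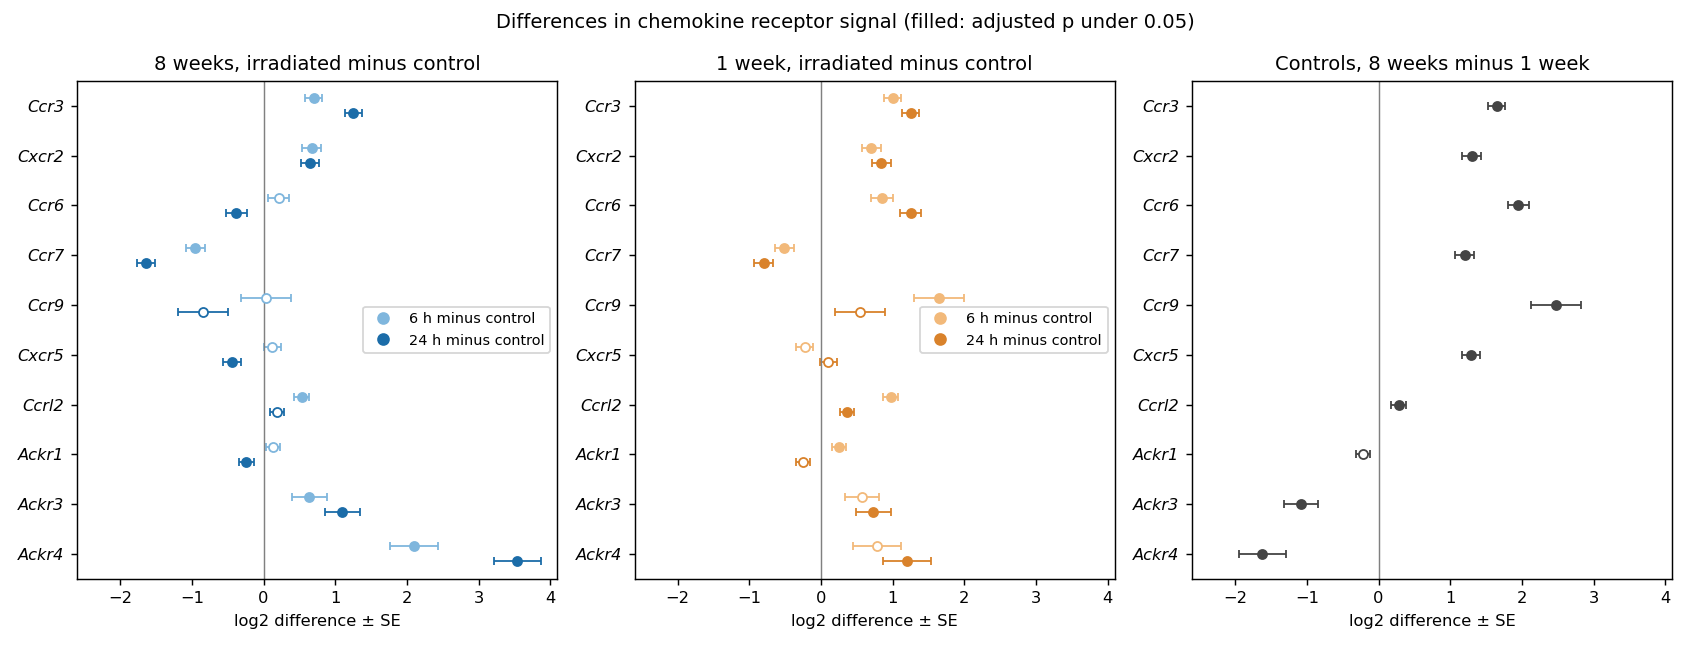
Log2 differences ± SE of the limma fit for the 10 receptors (horizontal axes, 3 arrays per group). The left and middle panels show irradiated minus control at 8 weeks and at 1 week, 6 h in the lighter and 24 h in the darker colour. The right panel shows 8-week minus 1-week controls, and filled points passed an adjusted p of 0.05. Ackr4 lies furthest to the right at 24 h in 8-week mice and Ccr7 lies left of 0 in all 4 irradiation comparisons.

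Unirradiated marrow of the 2 ages differed for 9 of the 10 receptors, while 64.9% of all tested genes were called, 27.4% higher and 37.5% lower at 8 weeks. The 6 granulocyte and lymphoid receptors were higher in 8-week controls, and Ackr3 and Ackr4 were lower. Ccrl2 was higher by its brighter probe only. Ccr9 was 2.47 ± 0.35 log2 units higher at 8 weeks (SE, adjusted p = 1.27e-05), or 5.55-fold. Ccr6 was 1.95 ± 0.15 higher (adjusted p = 1.82e-08) and Ccr3 1.65 ± 0.12 higher (adjusted p = 5.33e-09). Cxcr2, Cxcr5 and Ccr7 were 1.30, 1.29 and 1.20 units higher, with adjusted p of 2.98e-07, 8.79e-08 and 7.5e-07. The control groups overlapped for none of the 10 receptors, the uncalled Ackr1 included. How many of all tested genes lacked overlap was not counted, so nothing is read from this. The median difference over the 10 receptors was 1.25 log2 units, against -0.09 over all genes tested.

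Ccrl2 was 0.28 ± 0.10 higher at 8 weeks by its brighter probe (adjusted p = 0.0193) and -0.15 by its dimmer one (adjusted p = 0.292), so its direction between the ages was not settled. The call of the brighter probe was lost without replicate 1 or 3 of the 1-week controls or replicate 1 of the 8-week controls (0.25 to 0.26, adjusted p = 0.0558 to 0.0633). Ackr1 was 0.22 ± 0.10 lower at 8 weeks with no overlap (adjusted p = 0.0674), and was called when replicate 1 or 3 of the 8-week 6 h group was left out of the fit (adjusted p = 0.00733 and 0.0422). Ackr3 was 1.08 ± 0.24 lower at 8 weeks (adjusted p = 0.000922), 0.77 lower without replicate 2 of the 1-week controls (adjusted p = 0.0054) and 0.52 lower with normexp. For Ackr4 the fitted difference, 8 weeks minus 1 week, was -1.62 ± 0.33 (adjusted p = 0.000375), and -0.42 with normexp (adjusted p = 0.00691). Its probe was well above background on none of the 8-week and 2 of the 3 1-week control arrays, so no bound on the fold is given.

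Marker lists differed between the ages as well. The 12 mature B-cell markers were all higher at 8 weeks (median 1.37), as were 11 of 12 late neutrophil markers (median 1.12) and 8 of 10 dendritic cell markers (median 1.27). All 6 early granulocyte markers were higher too (median 0.72). The other lymphoid lists were mixed. Of 8 T-cell markers 3 were higher and 2 lower (median 0.16), and of 9 B-cell precursor markers 4 were higher and 3 lower (median 0.20). The eosinophil list, with a median difference of 0.23, had overlapping control ranges, 2.62 to 2.75 at 8 weeks and 2.42 to 2.63 at 1 week, while Ccr3 did not overlap. Of 14 stromal markers 13 were lower at 8 weeks (median -2.50), and of 11 endothelial markers 10 were lower (median -0.83). Of 14 erythroid markers 1 was higher and 11 were lower (median -0.55), as were all 7 cartilage markers (median -3.96) and 8 of 10 skeletal muscle markers (median -3.67), lists in which replicate 2 of the 1-week controls stood apart. Of 8 basophil and mast cell markers 5 were higher and 2 lower (median 0.90), and of 14 monocyte and macrophage markers 11 were higher and 2 lower (median 0.48). The part of these cells in the receptor differences was not tested.

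The response to irradiation itself was compared between the ages as the irradiated minus control difference at 8 weeks minus that at 1 week. At 6 h this difference was called for 2 of the 10 receptors, Ccr9 and Ccrl2, against 18.6% of all tested genes (10.5% higher and 8.09% lower), a share near the background. At 24 h it was called for 5, Ccr6, Ccr7, Ccr9, Cxcr5 and Ackr4, against 42.1% of all genes (28.5% higher and 13.5% lower), 4 of the 5 being lower. The 24 h responses of Ccr6 in 8-week and 1-week mice differed by -1.64 ± 0.22 log2 units (SE, adjusted p = 3.13e-05), a fall at 8 weeks against a rise at 1 week. For Ccr7 the difference was -0.84 ± 0.19 (adjusted p = 0.00199), with falls at both ages and the larger one at 8 weeks. For Cxcr5 it was -0.54 ± 0.17 (adjusted p = 0.0166). For Ackr4 it was 2.33 ± 0.46 (adjusted p = 0.000871), a fitted value that rests on 8-week controls not well above background, and 0.80 with normexp (adjusted p = 0.00224). Since Ackr4 had entered the test only through the 24 h groups, these adjusted p are no independent support. The median difference over the 10 receptors was -0.21 at 6 h and -0.19 at 24 h, against 0.01 and 0.11 over all genes tested.

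The Ccr9 responses differed by -1.61 ± 0.50 at 6 h (adjusted p = 0.0347) and by -1.37 ± 0.50 at 24 h (adjusted p = 0.0361). Both calls depended on single arrays, and both were also lost with the slide as a fixed block. At 6 h the call was lost without any of 9 arrays (-1.66 to -1.40, adjusted p = 0.0506 to 0.0887), replicate 2 of the 1-week controls among them (-1.62, adjusted p = 0.0506). At 24 h it was lost without any of 7 (-1.43 to -0.85, adjusted p = 0.051 to 0.0846), with -0.85 given by leaving out replicate 3 of the 1-week 24 h group. The Ccrl2 difference at 6 h, -0.45 ± 0.14 (adjusted p = 0.0351), was lost without any of 8 arrays (-0.46 to -0.38, adjusted p = 0.0519 to 0.0812). Ccr6 at 6 h (-0.64 ± 0.22, adjusted p = 0.0503) and Ackr4 at 6 h (1.32 ± 0.46, adjusted p = 0.0576) lay just outside the threshold. Without replicate 2 of the 1-week controls both were called, at -0.70 (adjusted p = 0.0477) and 1.53 (adjusted p = 0.0384). With normexp the Ackr4 difference at 6 h was 0.19 (adjusted p = 0.499). For Cxcr5 at 6 h the difference was 0.35 ± 0.17 (adjusted p = 0.154), and 0.48 (adjusted p = 0.0421) without replicate 3 of the 8-week 6 h group.

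For the granulocyte receptors no difference between the ages was called, and the intervals leave room for modest ones. The 24 h responses of Ccr3 differed by 0.01 (95% interval -0.34 to 0.36) and those of Cxcr2 by -0.20 (-0.59 to 0.20). At 6 h the differences were -0.30 (-0.65 to 0.05) for Ccr3 and -0.04 (-0.43 to 0.36) for Cxcr2. Ackr1 differed by -0.12 at 6 h (-0.42 to 0.17) and 0.01 at 24 h (-0.29 to 0.30). Ackr3 differed by 0.08 at 6 h (-0.65 to 0.80) and 0.37 at 24 h (-0.36 to 1.1).

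**Figure D3:**
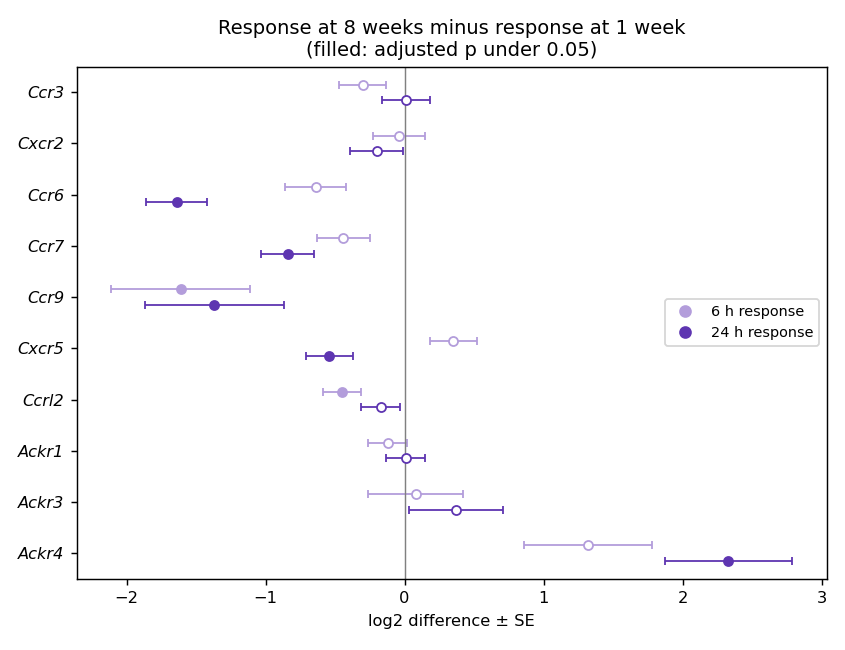
Difference between the ages in the response to 2 Gy (irradiated minus control at 8 weeks, minus the same at 1 week; log2 units ± SE of the limma fit) for the 10 receptors, at 6 h in the lighter and at 24 h in the darker colour. Filled points passed an adjusted p of 0.05. At 24 h Ccr6, Ccr7, Ccr9 and Cxcr5 lie left of 0 and Ackr4 lies at 2.33.

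Over the step from 6 h to 24 h, 2 receptors rose (Ccr3 and Ackr4) and 5 fell (Ccr6, Ccr7, Cxcr5, Ccrl2 and Ackr1) in 8-week mice, against 49.4% of all tested genes called (33% higher and 16.5% lower). Ackr4 had entered the test only through the 24 h groups, so its call is no independent support. The Ccr9 difference in 8-week mice, -0.87, lay just outside the threshold (adjusted p = 0.0518). In 1-week mice 2 rose (Ccr6 and Cxcr5) and 3 fell (Ccr9, Ccrl2 and Ackr1), against 36.2% of all genes (18.6% higher and 17.6% lower). The median over the 10 receptors was -0.35 in 8-week mice and 0.15 in 1-week mice, against 0.10 and 0 over all genes tested.

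**Figure D4:**
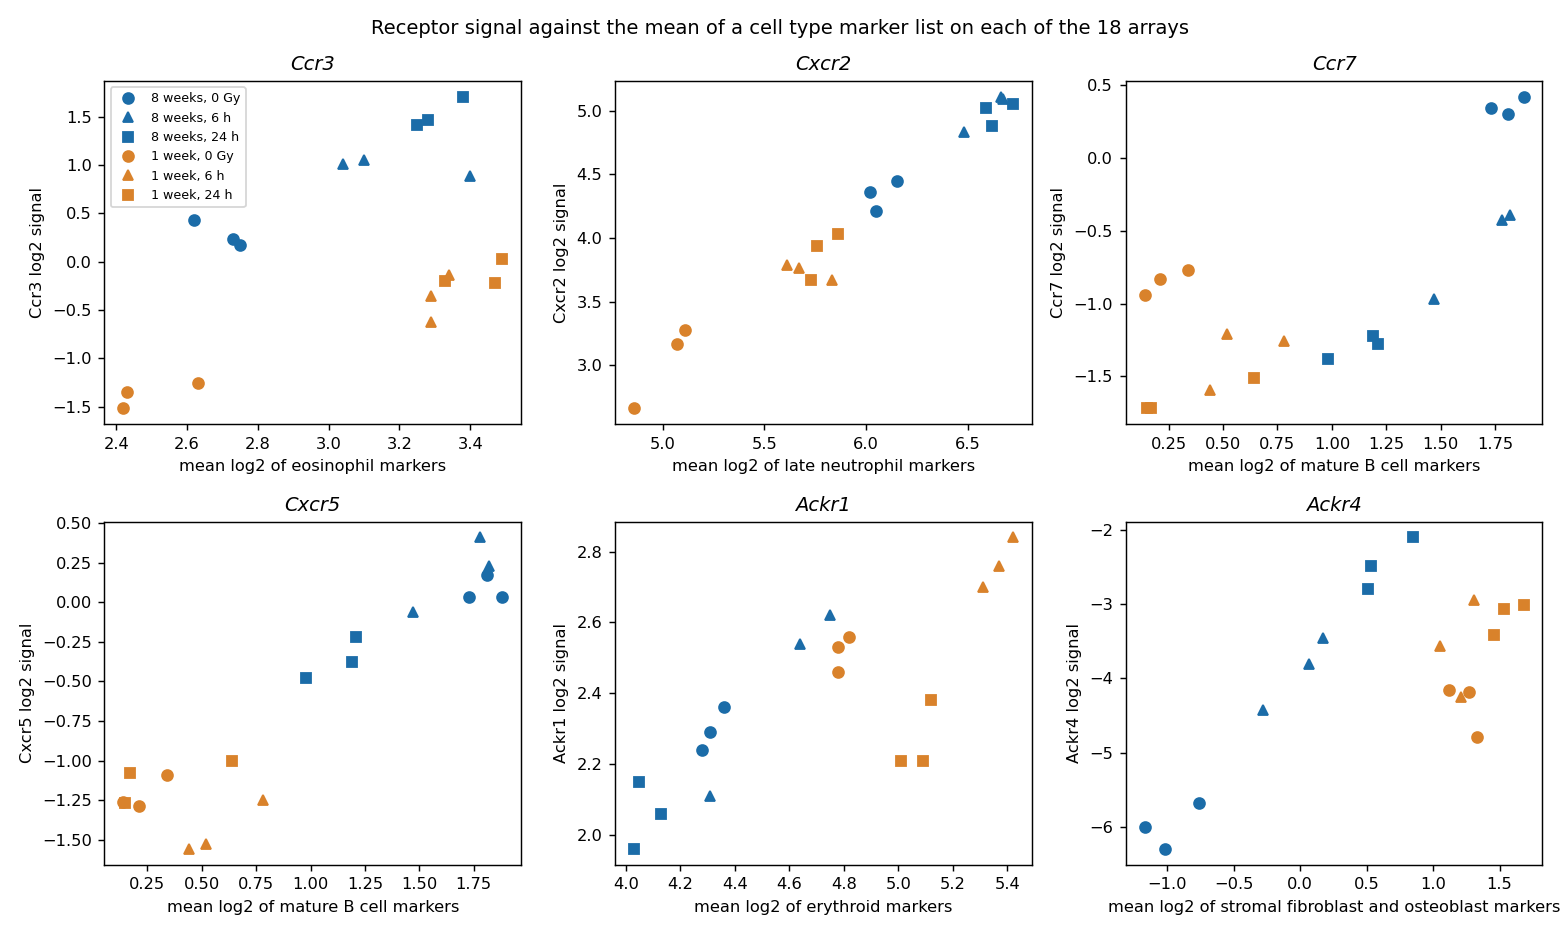
Log2 signal of 6 receptors (vertical axes) against the mean log2 level of a marker list (horizontal axes) on each of the 18 arrays, both relative to the array's 75th percentile. Blue is 8 weeks and orange 1 week, with circles for controls, triangles for 6 h and squares for 24 h. Cxcr2 follows the late neutrophil mean over all groups, whereas Ccr3 at a like eosinophil mean is higher at 8 weeks than at 1 week.

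Each receptor was also set against the tested genes for the likeness of its values over the 18 arrays. Clone and locus identifiers and immunoglobulin and T-cell receptor segments were left out of this ranking. These correlations are descriptions over 6 groups that share arrays and conditions, and much of each comes from the differences between group means. The values of Cxcr2 were most like those of Alox5ap, Hp and Padi4 (r = 0.988, 0.987 and 0.986), and those of Ccr3 most like Hc, S100a11 and Dgat2 (0.986, 0.985 and 0.985). Ccr7 was closest to Cd72, Klc3 and Foxp1 (0.983, 0.976 and 0.972), Cxcr5 to H2-Oa, Abhd17b and Tmed8 (0.978, 0.978 and 0.975), Ccr6 to Plekha1, Lyst and Chst10 (0.965, 0.954 and 0.952) and Ccr9 to L1cam, Btg1 and Acox3 (0.953, 0.933 and 0.929). For the atypical receptors the closest genes were Mxi1, Abhd4 and Sqstm1 for Ccrl2 (0.944, 0.938 and 0.937), Nemp1, Trmo and Hspbap1 for Ackr1 (0.94, 0.937 and 0.934), Lypd6, Epx and Pim1 for Ackr3 (0.942, 0.929 and 0.913) and Gas6, Ltbp2 and Esm1 for Ackr4 (0.941, 0.937 and 0.936). After the group means were removed, r of these 30 pairs was 0.07 (Ccr6 with Chst10) to 0.87 (Ccr9 with L1cam), and 0.728 to 0.82 for the genes most like Cxcr2. Without replicate 2 of the 1-week controls, r of these 30 genes was 0.925 to 0.99. Padi4 and Epx are also in the late neutrophil and eosinophil marker lists.

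Of the 17 ligands of these receptors 8 could be tested. Ccl11, Ccl20, Ccl21a, Cxcl1, Cxcl2, Cxcl3, Cxcl5 and Cxcl13 were too dim, and Cxcl11 had no probe. At 6 h and at 24 h in 8-week mice 5 rose and none fell, and in 1-week mice 2 rose and 1 fell at 6 h and 3 rose at 24 h. Of all tested genes 23.9% and 38.3% were higher at 6 h and 24 h in 8-week mice, and 25.5% and 18.4% in 1-week mice. Cxcl12, the stromal chemokine that holds blood cells in the marrow and a ligand of Ackr3, was 0.65 ± 0.16 log2 units above control at 6 h and 1.95 ± 0.16 at 24 h in 8-week mice (SE, adjusted p = 0.00314 and 3.53e-08). In 1-week mice it was -0.23 ± 0.16 at 6 h (not called, adjusted p = 0.227) and 0.87 ± 0.16 at 24 h (adjusted p = 0.000385). Rarres2, which encodes chemerin, the ligand of Ccrl2, was 0.79 and 1.78 above control at 6 h and 24 h in 8-week mice (adjusted p = 0.00129 and 2.27e-07). It was -0.03 and 0.59 in 1-week mice (adjusted p = 0.881 and 0.0111). Ccl7, a ligand of Ccr3, was well above background on all 3 arrays at 24 h in 8-week mice and on no control array of either age. It counts among the ligands that rose there. It entered the test only through that 24 h group, so its adjusted p is no independent support and is not given. The median over the 8 ligands was 0.62 and 0.94 at 6 h and 24 h in 8-week mice and -0.02 and 0.23 in 1-week mice.

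Of 15 other chemokine receptors 9 could be tested. At 6 h and 24 h in 8-week mice 2 rose, and 1 rose and 2 fell, while in 1-week mice 4 rose and 1 fell, and 2 rose. Of all tested genes 23.9% and 38.3% were higher, and 22.1% and 19.5% lower, at 6 h and 24 h in 8-week mice. In 1-week mice 25.5% and 18.4% were higher and 26.3% and 17.6% lower. Counts of so few genes are not read as a result. Cx3cr1, the fractalkine receptor of monocytes, was 0.74 ± 0.14 log2 units below control at 24 h in 8-week mice (SE, adjusted p = 0.00025) and 0.60 ± 0.14 above control in 1-week mice (adjusted p = 0.00292). Their 24 h responses differed by -1.34 ± 0.20 (adjusted p = 7.32e-05), as a fall at 8 weeks against a rise at 1 week. Ccr2, which brings monocytes out of the marrow, was 0.62 ± 0.13 below control at 24 h in 8-week mice (adjusted p = 0.00052) and 0.18 above in 1-week mice (adjusted p = 0.299), a difference of -0.80 ± 0.18 (adjusted p = 0.00208). Of 14 monocyte and macrophage markers 11 rose at 6 h and 12 at 24 h in 8-week mice (median 1.39 at 24 h), and 3 rose and 8 fell at 6 h and 12 rose at 24 h in 1-week mice, so that at 24 h in 8-week mice this list and these 2 receptors moved in opposite directions. Among 17 tested genes of receptor signalling and trafficking 9 rose at each time in 8-week mice. In 1-week mice 10 rose and 2 fell at 6 h and 5 rose at 24 h. The same shares of all tested genes stand beside these counts. Rgs18, a regulator of G protein signalling in blood cells, rose in all 4 comparisons, by 0.69 and 0.60 in 8-week mice and 0.65 and 0.66 in 1-week mice.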

How the data were processed

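Signals of 18 one-colour arrays were analysed. Each deposited scanner file gives 1 intensity per spot after background subtraction in Agilent Feature Extraction (11.5.1 per the submitters' processing notes, 9.5.1.1 per the file headers). The flags for well above background and saturated are a score of 0 or 1 per spot, per the file headers. The deposited series table holds log2 values of the authors, shifted by the 75th percentile and centred per probe, and served as an alternative (column medians -0.168 to 0.245, r from 0.9999 to 1 with the same values recomputed from the scanner files). Centring per probe leaves differences between groups as they are, so this alternative could hardly change a result, though it is counted among the refits. Control and outlier spots were left out, spots of a probe averaged, and log2 signal taken relative to the array's 75th percentile. Gene symbols came from RefSeq accessions of the array design, with the brightest probe per gene. Genes well above background on all 3 arrays of a group entered a limma fit (version 3.58.1, R 4.3.3, group means, intensity trend, all 18 arrays), with 9 comparisons and two-sided p-values adjusted over 11884 genes. Groups came from the labels, and p-values measure the spread between mice as labelled. The arrays lay on 5 slides, and the groups were not balanced over them. In 8-week mice the controls lay on slides 3, 4 and 5, the 6 h arrays on 1, 2 and 3 and the 24 h arrays on 1, 2 and 5. In 1-week mice the controls lay on slides 1, 2 and 3, the 6 h arrays on 1, 4 and 5 and the 24 h arrays on 2, 3 and 4.

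The 10 receptors and all lists were chosen with earlier results of these data known. The receptors, the Cdkn1a check, called genes of the lists (at most 4 per list and comparison) and the 3 genes most correlated with each receptor are named. That last choice left out clone and locus identifiers and immunoglobulin and T-cell receptor segments. Same-numbered arrays were not paired (45 pairs, r from -0.27 to 0.32, 9 above 0.1). The files hold no mean signal, so the normexp alternative used median signal and background. Alternatives also varied scaling, filter, probes, slide and array left out.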

Additional observations from a re-analysis of the deposited data

Results flagged for a closer look

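The results below are those in which the response to 2 Gy differed between 8-week and 1-week mice by the interaction term of the fit. At 6 h this held for Ccr9 (8 weeks minus 1 week, -1.61 ± 0.50 log2 units, SE) and Ccrl2 (-0.45 ± 0.14). At 24 h it held for Ccr6 (-1.64 ± 0.22), Ccr7 (-0.84 ± 0.19), Ccr9 (-1.37 ± 0.50), Cxcr5 (-0.54 ± 0.17) and Ackr4 (2.33 ± 0.46, and 0.80 with normexp background correction). Ccr6 and Ackr4 had the smallest adjusted p among them, 3.13e-05 and 0.000871. Ackr4 had entered the test only through the 24 h groups, so its adjusted p is no independent support. No group had 4 or more arrays, so single arrays were not tested as outliers.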

How the results depend on the processing

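Of 90 receptor results 56 were called, and 42 of these kept direction and call under every refit, while 14 lost the call under at least 1 and 15 uncalled results gained one. The only called result to change sign was Ccrl2 between the ages, at -0.15 with the dimmer probe, and 10 uncalled results changed sign somewhere. Over all refits, differences left uncalled that some refit called ranged from 0.03 to 0.28 for Ackr1 (8 weeks, 6 h), 0.26 to 0.88 for Ackr3 and 0.46 to 1.11 for Ackr4 (1 week, 6 h), 0.10 to 0.39 for Ccr6 (8 weeks, 6 h), -0.33 to -0.02 for Cxcr5 (1 week, 6 h), and -0.02 to 0.48 for Cxcr5, -0.75 to -0.42 for Ccr6 and 0.19 to 1.80 for Ackr4 (6 h response difference). Those of 24 h minus 6 h at 1 week ranged from 0.12 to 0.36 for Ccr3 and -0.41 to -0.18 for Ccr7. All 63 within-slide values of called results had the same sign as the full fit. This could have failed only where the arrays of the groups overlapped. Those results were 24 h minus 6 h of Ccr6, Ccr9 and Cxcr5 at 1 week, and of Ccrl2 and Ackr1 at 8 weeks. The 6 h response difference was called for 1370 genes with the slide as a fixed block, against 2210, and for 0 receptors with that block or with no filter on dim probes, and 1 without the intensity trend, against 2. The slide block also removed the calls of Ackr3 at 6 h and of Ccr6 and Ackr1 at 24 h in 8-week mice. Other calls it removed were Ccr9 (24 h minus 6 h at 1 week, 24 h response difference) and Ccrl2 between the ages. It added calls for Ackr1 at 24 h and Cxcr5 at 6 h in 1-week mice, and for Ccr9 from 6 h to 24 h in 8-week mice. The 1-week 24 h minus 6 h count of 5 receptors was 3 with normexp, 3 with the percentile of probes detected on all arrays, 3 with no filter and 2 when only the groups compared were fitted. With 1 array left out, the receptors called ranged from 6 to 8 (1 week, 6 h), 6 to 8 (1 week, 24 h), 5 to 7 (8 weeks, 6 h), 6 to 9 (8 weeks, 24 h), 8 to 10 (age), 0 to 3 and 4 to 5 (response differences at 6 h and 24 h), 2 to 6 and 6 to 8 (24 h minus 6 h at 1 week and 8 weeks). The labels give no pairing, and with the replicate number as a block 9, 7, 6 and 8 receptors were called (1 week at 6 h and 24 h, 8 weeks at 6 h and 24 h), 9 between the ages, 3 and 4 for the response differences and 4 and 7 for 24 h minus 6 h. In the normexp alternative 20 spots on 3 arrays with a background above their signal took the array's median background. The cause of these shifts was not tested. Signal near background limits Ackr3 and Ackr4.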
